A study of Homo sapiens with 9 samples.

Results

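Receptor tyrosine kinases are cell surface proteins that bind a ligand outside the cell, pair up, phosphorylate one another and pass the signal on to the RAS-MAPK and PI3K-AKT pathways. In lung cancers that depend on mutant EGFR, other receptors of this class can feed the same pathways when EGFR is inhibited, and they are then called bypass receptors. The 10 genes described here were listed by name for that role: MET, AXL, FGFR1, FGFR2, FGFR3, IGF1R, INSR, EPHA2, MST1R and DDR1. They are 10 of the 58 receptor tyrosine kinase genes looked up and 10 of the 60675 genes in the table, and 9 of them had enough counts to be tested, as had 13264 genes in all. FGFR2 was the untested one.

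RNA was sequenced from HCC827, an established human lung adenocarcinoma line with an activating EGFR mutation. The line stably carried a non-silencing control hairpin (NS) or one of a pair of short hairpin RNAs against CBX5, named G1 and G7, and all 3 kinds of cells grew in DMEM with serum and antibiotics, with no EGFR inhibitor named in the labels. CBX5 encodes heterochromatin protein 1 alpha, which binds methylated histone H3 and helps to keep chromatin closed. Each group had 3 libraries, 9 in all. The design text calls them biological replicates, but the labels give no separate transductions, so each hairpin may stand for 1 transformed population. All come from 1 cell line, and the p-values measure the spread between these libraries, which may be technical.

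Libraries held 12701561 to 22372353 counts, and 3 counts, the most that a count of 0 allows for counting error, came to 0.139 to 0.227 CPM (counts scaled to library size). CPM here include the TMM factor, which aligns most genes between libraries, and are given as mean ± SD over 3 libraries. CBX5 was 369.2 ± 8.11 CPM in the control, 141.9 ± 0.595 CPM with G1 and 203.2 ± 1.54 CPM with G7, so the labels of the knockdown held in all 6 hairpin libraries and its level was the lowest with G1 (log2 difference from G7 -0.52, adjusted p = 5.63e-09). G7 replicate 3 stood apart from its group: its counts differed from those of replicates 1 and 2 by a chi-square of 24.9 and 19.3 per degree of freedom, against 1.5 between those 2 and at most 9.22 within the other groups, and 19.8% of its counts came from mitochondrially encoded genes, against 13.4 to 17.7% elsewhere. The receptors' results on G7 were therefore also computed without it. The epithelial markers EPCAM, CDH1, KRT8, KRT18 and KRT19 were abundant in every library, with a summed level over the 9-gene list of 8730 to 9570 CPM in the control, 12600 to 12800 CPM with G1 and 10400 to 11100 CPM with G7, while the lung markers NKX2-1, NAPSA and SFTA2 were listed at 0. The keratins made up most of that sum, and the lung surfactant gene SFTPB went the other way, with 0.825 ± 0.268 CPM in the control, 0.123 ± 0.116 CPM with G1, where it was called lower (adjusted p = 0.000199), and 0.605 ± 0.124 CPM with G7. Of 8 mesenchymal markers 6 were under 1 CPM in every library, and the summed level of that list, most of it FN1, was 856 to 881, 606 to 635 and 705 to 750 CPM in the same order. In that list FN1 fell with both hairpins (-0.49 and -0.27, adjusted p = 1.31e-08 and 0.000155), and SNAI1 rose with G1 (0.56, adjusted p = 0.00519) and had a change of -0.06 with G7 (adjusted p = 0.856). Of 11 fibroblast, endothelial and blood cell markers 8 were under 1 CPM in every library, with sums of 98.9 to 108, 87.2 to 93.3 and 100 to 106 CPM. In the last list PECAM1 fell and CDH5 rose with G1 (-0.40 and 0.32, adjusted p = 9.37e-06 and 0.0039). Most of the last sum was PECAM1, with 73.4 CPM in the control. The sums of all 3 lists thus differed between the control and G1 without overlap, as did 64.1% of all single genes tested. Each sum rests on a few genes, and their part in the receptors' results below was not tested.

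A gene is called here when the Benjamini-Hochberg adjusted p of edgeR's two-sided quasi-likelihood test, taken over all genes tested, is under 0.05, and differences are log2 fold changes ± SE. With G1 against control 5 of the 9 tested receptors were called, where 59.1% of all genes tested were: MET, FGFR1 and EPHA2 rose, and INSR and AXL fell. With G7 against control 3 of 9 were called, where 22.7% of all genes were: MET, FGFR1 and EPHA2 rose. Without G7 replicate 3 the same 3 were called, with changes of 0.21, 0.63 and 0.43 (adjusted p = 0.00268, 0.000402 and 6.85e-07), and the other 6 had changes from -0.14 (AXL) to 0.05 (FGFR3). Between G1 and G7 directly 2 of 9 were called, where 44.9% of all genes were: FGFR1 was higher and EPHA2 lower with G1. Without G7 replicate 3 these differences were 0.29 and -0.28 (adjusted p = 0.0319 and 4.27e-05), and no other receptor was called. Under upper-quartile scaling the G1 calls were 2 higher and 2 lower, and the G7 calls 3 higher and 1 lower. MST1R, FGFR3, IGF1R and DDR1 were called in none of the 3 comparisons, and a p that misses the threshold does not show that their levels were equal. These shares of called receptors lay near the share over all genes with G1, above it with G7 and below it between the hairpins. The 9 genes were picked for their function, with earlier results of these data known. Both hairpins were compared with the same 3 control libraries, so the rises seen with both are not independent of each other.

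**Figure D1:**
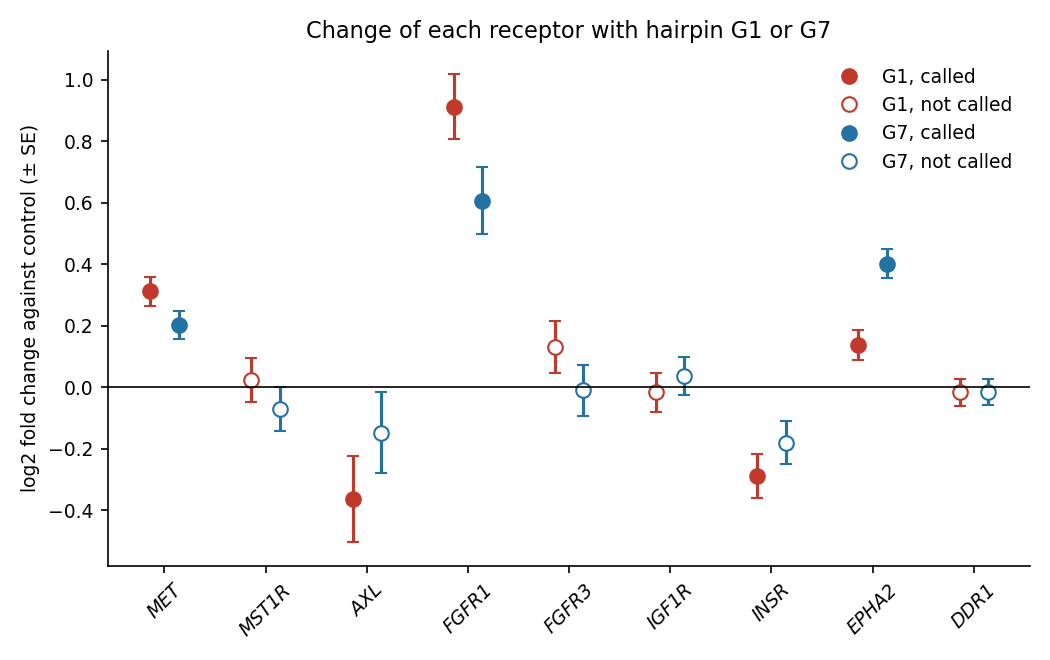
Log2 fold change against control (vertical axis, ± SE) of the 9 tested receptors (horizontal axis) with hairpin G1 (red) and G7 (blue); filled points were called, open points were not. FGFR1 lies highest with both hairpins (0.91 and 0.61), and DDR1 lies at -0.02 with both.

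The bases just upstream of the start sites of 4 called receptors are shown because MET and EPHA2 moved the opposite way from INSR and AXL with G1. They come from RefSeq (GRCh38.p14), are the 250 bases before the annotated RefSeq start, written 5′ to 3′ on the gene's strand, and capitals mark every GC box (GGGCGG, searched on both strands), the motif bound by SP1-type factors.
MET, chr7:116671946-116672195, plus strand: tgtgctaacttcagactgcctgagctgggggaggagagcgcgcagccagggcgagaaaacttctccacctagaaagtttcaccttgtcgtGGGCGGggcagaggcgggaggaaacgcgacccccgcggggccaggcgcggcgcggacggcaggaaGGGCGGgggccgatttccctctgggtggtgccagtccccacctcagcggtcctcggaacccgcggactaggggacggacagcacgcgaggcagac
EPHA2, chr1:16156070-16156319, minus strand: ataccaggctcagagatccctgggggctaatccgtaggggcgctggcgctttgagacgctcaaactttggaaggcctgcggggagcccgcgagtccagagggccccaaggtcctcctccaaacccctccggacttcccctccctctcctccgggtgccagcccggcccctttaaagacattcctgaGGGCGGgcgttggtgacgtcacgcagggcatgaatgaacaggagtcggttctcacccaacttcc
INSR, chr19:7294415-7294664, minus strand: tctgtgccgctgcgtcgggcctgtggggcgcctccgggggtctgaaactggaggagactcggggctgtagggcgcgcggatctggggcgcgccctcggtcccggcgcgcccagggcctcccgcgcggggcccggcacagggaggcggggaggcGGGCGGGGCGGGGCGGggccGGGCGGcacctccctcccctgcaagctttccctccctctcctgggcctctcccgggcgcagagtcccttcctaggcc
AXL, chr19:41218973-41219222, plus strand: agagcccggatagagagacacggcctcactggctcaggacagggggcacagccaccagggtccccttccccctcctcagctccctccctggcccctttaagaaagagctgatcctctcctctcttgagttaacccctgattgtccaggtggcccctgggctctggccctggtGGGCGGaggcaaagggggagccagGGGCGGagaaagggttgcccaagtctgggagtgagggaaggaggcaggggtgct

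All 4 windows held at least 1 GC box, with 2 in MET, 1 in EPHA2, 4 in INSR, of which 3 run into one another, and 2 in AXL. Of 35116 RefSeq windows of the same length, 42.6% held one. The CpG dinucleotide was counted 24 times in MET, 15 in EPHA2 and 28 in INSR but only 4 times in AXL, where the median window had 11, and the GC content was 68.4%, 63.2%, 78.4% and 64.4%. Neither the AP-1 motif TGANTCA, the E-box CACGTG nor the TATA box TATAAA was found in any of them on either strand, where 6.6%, 6.3% and 10.7% of all windows held these letters. In these 4 windows GC boxes were found upstream of receptors that rose and of receptors that fell. The G1 changes of EPHA2 and AXL were not called under several alternatives, which are given below with each gene. The window of FGFR1, which also rose, is not part of this comparison. The RefSeq starts lie 194, 18, 380 and 20 bases from the GENCODE gene starts of MET, EPHA2, INSR and AXL, and AXL has 2 RefSeq windows, of which 1 is shown. A motif here is a match of letters, not a measured site.

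MET is the receptor of hepatocyte growth factor and is the best known bypass receptor in EGFR-mutant lung cancer, where its gene can be amplified. It (ENSG00000105976, GRCh38 chromosome 7, 116672390 to 116798386, plus strand) had 106.5, 113 and 99.8 CPM in the control libraries, 134, 131 and 131 CPM with G1, and 122, 124 and 121 CPM with G7. Every hairpin library was above every control library, and every G1 library was above every G7 library. MET rose by 0.31 ± 0.05 with G1 (fold 1.24, adjusted p = 1.57e-05) and by 0.20 ± 0.05 with G7 (adjusted p = 0.00439). The G1 and G7 levels, 132.1 ± 2.11 and 122.5 ± 1.61 CPM, differed by 0.11 ± 0.05 with an adjusted p of 0.0618. That difference was called under 6 of the alternatives run, with adjusted p from 0.0274 to 0.0482. MST1R, or RON, the receptor of macrophage-stimulating protein and the closest relative of MET, had 28.0, 25.6 and 28.9 CPM in the control, 26.8, 30.0 and 26.9 CPM with G1, and 26.9, 27.1 and 24.8 CPM with G7. Its 3 groups overlapped, with changes of 0.02 ± 0.07 (adjusted p = 0.795) and -0.07 ± 0.07 (adjusted p = 0.528). An antisense gene shares 6.23% of the exon length of MST1R, and the strand setting of the counting is not given in the sources used here. The count of MST1R over the shared bases is therefore uncertain.

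FGFR1 showed the largest change of the 9. It is a receptor of fibroblast growth factors that signals through the docking protein FRS2, and its level is often raised in cells with mesenchymal features. FGFR1 (ENSG00000077782, chromosome 8, 38400215 to 38468834, minus strand) had 77, 91 and 89 reads in the control libraries, 184, 193 and 181 with G1, and 193, 143 and 184 with G7. Scaled to library size these were 5.82, 6.25 and 5.30 CPM, then 10.9, 10.2 and 11.6 CPM, then 8.94, 8.88 and 8.57 CPM. No library of one group reached into another: the control was lowest, G7 stood between and G1 was highest. FGFR1 rose by 0.91 ± 0.11 with G1 (fold 1.88, adjusted p = 6.77e-07) and by 0.61 ± 0.11 with G7 (fold 1.52, adjusted p = 5e-04), and it was higher with G1 than with G7 by 0.31 ± 0.09 (adjusted p = 0.0125). Without G1 replicate 3 the last difference was 0.26 and no longer called (adjusted p = 0.0586). FGFR1 was the only one of the 9 whose estimate passed 1.5-fold in any of the comparisons, which 23.1% of all genes did with G1, 4.39% with G7 and 12.2% between the hairpins.

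The other 2 FGF receptors in the set did not follow FGFR1. FGFR3 had 23.0, 20.4 and 26.2 CPM in the control, 25.8, 24.5 and 26.2 CPM with G1, and 24.2, 23.8 and 21.4 CPM with G7. The control libraries overlapped both hairpin groups, while every G1 library was above every G7 library. Its changes were 0.13 ± 0.08 with G1 (adjusted p = 0.184) and -0.01 ± 0.08 with G7 (adjusted p = 0.957). Leaving out control replicate 3, the highest control library, gave 0.24 with G1 and an adjusted p of 0.0251. FGFR2, which has isoforms typical of epithelial cells, was counted 1, 0 and 0 times in the control, 1, 1 and 0 times with G1, and 3, 0 and 0 times with G7. These counts are at or under the 3 that a count of 0 allows, so no fold is given.

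AXL binds GAS6 and protein S and is linked to drug tolerance and to a mesenchymal state in lung cancer cells. It (ENSG00000167601, chromosome 19, 41219203 to 41261766, plus strand) was low throughout, with 60 to 110 reads per library. It had 5.21, 6.04 and 4.58 CPM in the control, 4.09, 4.27 and 3.85 CPM with G1, and 5.10, 4.35 and 4.71 CPM with G7. The 3 G1 libraries were the 3 lowest of all, and the G7 libraries overlapped the control. AXL fell by 0.36 on the log2 scale with G1 (SE 0.14, adjusted p = 0.0319), and its change with G7 was -0.15 ± 0.13 (adjusted p = 0.467). The fall with G1 was not called by DESeq2 (adjusted p = 0.0927), with low genes kept (0.068), or without control replicate 1 (0.0602), control replicate 2 (0.171), G1 replicate 1 (0.0664) or G1 replicate 3 (0.0904). The direct difference between the hairpins was -0.22 ± 0.14 (adjusted p = 0.203), so AXL was not shown to differ between G1 and G7.

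The insulin receptor INSR and the insulin-like growth factor 1 receptor IGF1R are close relatives that signal through the docking proteins IRS1 and IRS2 and can form hybrids. INSR (chromosome 19, 7112255 to 7294034, minus strand) had 34.3, 33.3 and 36.1 CPM in the control, 29.2, 29.7 and 26.1 CPM with G1, and 31.0, 32.8 and 28.0 CPM with G7. All 6 hairpin libraries were below the 3 control libraries, and G1 and G7 overlapped. INSR fell by 0.29 on the log2 scale with G1 (SE 0.07, adjusted p = 0.00212). With G7 its change was -0.18 ± 0.07 (adjusted p = 0.0731), which was called under upper-quartile scaling (-0.21, adjusted p = 0.0409) and without G7 replicate 2 (-0.23, adjusted p = 0.047), and was -0.12 without G7 replicate 3 (adjusted p = 0.242). IGF1R had 38.3, 38.7 and 42.2 CPM in the control, 39.1, 37.9 and 41.3 CPM with G1, and 39.8, 39.4 and 43.3 CPM with G7. Its groups overlapped, with changes of -0.02 ± 0.06 and 0.04 ± 0.06 (adjusted p = 0.84 and 0.721).

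EPHA2 is an ephrin receptor of epithelial cells that can also signal without ligand. It (chromosome 1, 16124337 to 16156087, minus strand) had 92.3, 91.2 and 99.8 CPM in the control, 105, 103 and 104 CPM with G1, and 132, 121 and 121 CPM with G7. The groups did not overlap, but their order was not that of FGFR1: the control was lowest, G1 stood between and G7 was highest. EPHA2 rose by 0.40 ± 0.05 with G7 (fold 1.32, adjusted p = 1.11e-05) and by 0.14 ± 0.05 with G1 (fold 1.1, adjusted p = 0.0216), and was lower with G1 than with G7 (log2 difference -0.26 ± 0.05, adjusted p = 0.000187). The G1 rise was not called under upper-quartile scaling (0.05, adjusted p = 0.389) or without control replicate 1 (0.12, adjusted p = 0.0747), control replicate 2 (0.12, adjusted p = 0.0855) or G1 replicate 1 (0.14, adjusted p = 0.063). DDR1, a receptor of collagen that is common on epithelial cells, had 240.3, 238 and 258 CPM in the control, 247, 244 and 239 CPM with G1, and 254, 236 and 239 CPM with G7. Its groups overlapped, with changes of -0.02 ± 0.04 with each hairpin (adjusted p = 0.787 and 0.85).

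**Figure D2:**
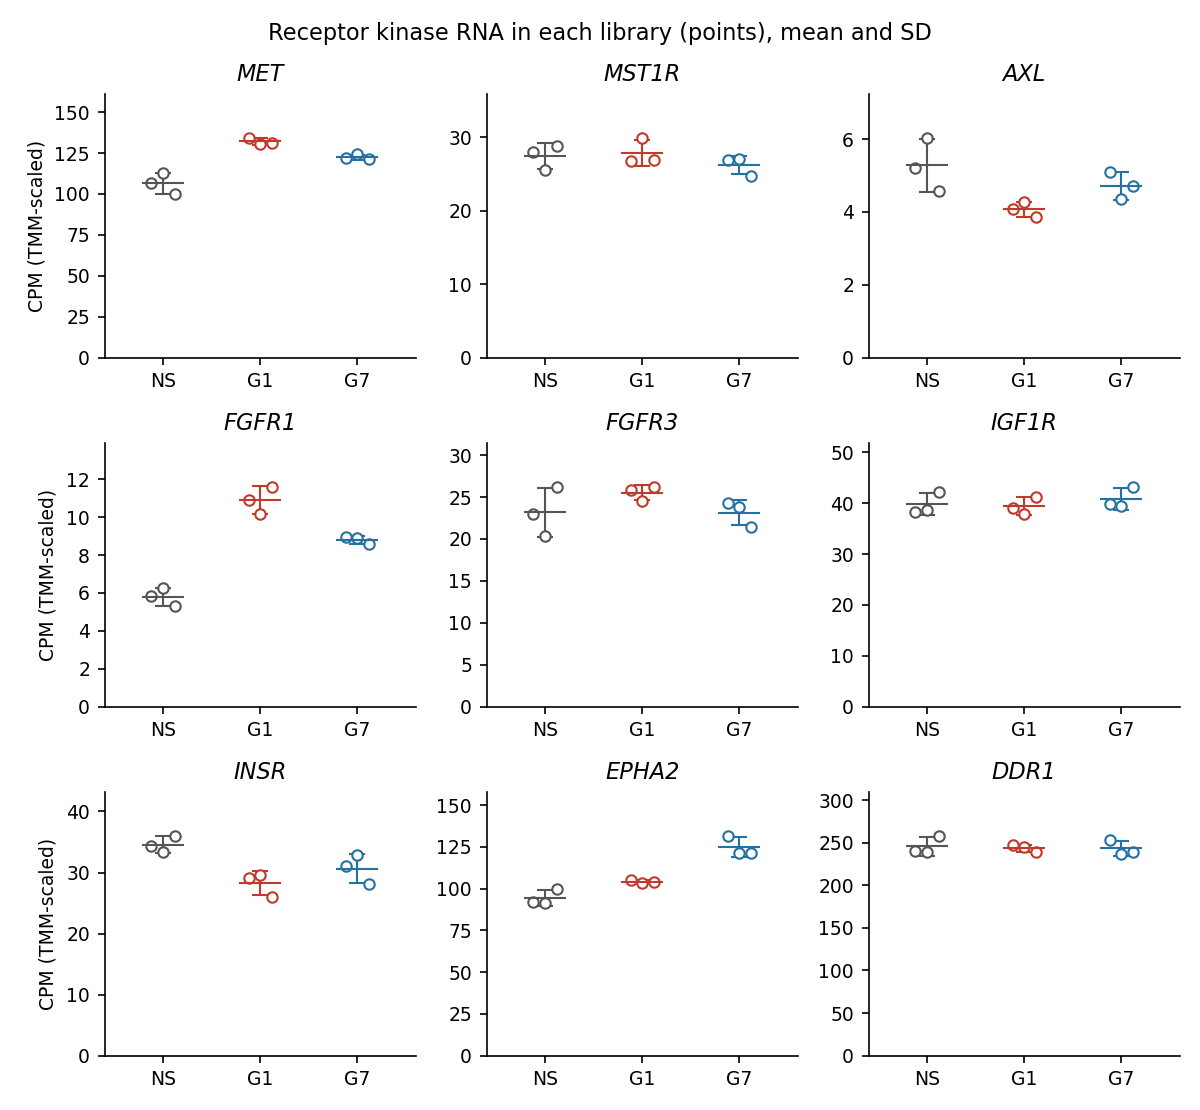
TMM-scaled CPM (vertical axes, from 0) of the 9 tested receptors in each library (open points) with the mean and SD of the 3 libraries of NS, G1 and G7. MET and FGFR1 rise in the order control, G7, G1, EPHA2 in the order control, G1, G7, and the points of MST1R, IGF1R and DDR1 overlap between groups.

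Libraries of the 2 groups compared did not overlap for 5 of the 9 tested receptors with G1 against control, for 4 of 9 with G7 against control and for 5 of 9 between the hairpins. Over all genes tested this held for 64.1%, 35.3% and 53.6%. The 5 with G1 were MET, AXL, FGFR1, INSR and EPHA2, the 4 with G7 were the same without AXL, and the 5 between the hairpins were MET, AXL, FGFR1, FGFR3 and EPHA2. The median log2 change of the 9 was 0.02 with G1 and -0.01 with G7, where all genes tested had medians of -0.01 and 0.01, so the receptors did not move one way as a group. Over the 9 libraries MET and FGFR1 had a Pearson correlation of 0.976 and FGFR1 and INSR one of -0.873, given as a description of 9 points that share their groups. Patterns were ranked among 10636 other genes with an established symbol and a mean of at least 2 CPM. Of these, the nearest to FGFR1 over the 9 libraries was GINS3 (Pearson correlation 0.997). The nearest to MET was ZNF611 (0.995) and the nearest to EPHA2 was PLXND1 (0.988). The nearest to INSR and AXL were PLXNB3 (0.979) and ZNF720 (0.937).

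To compare levels between genes, CPM were divided by the merged exon length in kilobases. In the control DDR1 was highest at 26.9 ± 1.2 CPM per kb, followed by EPHA2 (22.7 ± 1.12), MET (15.1 ± 0.938), MST1R (5.23 ± 0.328), FGFR3 (4.78 ± 0.597), INSR (3.31 ± 0.133), IGF1R (2.85 ± 0.155), AXL (1.02 ± 0.142) and FGFR1 (0.418 ± 0.0345). Neighbours in that order did not overlap between libraries, except MST1R and FGFR3, which did. FGFR1 was thus the receptor that changed most and the least expressed of the 9 per length. With G7 EPHA2 stood above DDR1, at 30.0 ± 1.44 against 26.7 ± 1.01 CPM per kb and without overlap, where in the control and with G1 DDR1 was above EPHA2. With G1 AXL and FGFR1 met at 0.79 ± 0.0407 and 0.787 ± 0.0522 CPM per kb, and INSR and IGF1R overlapped with either hairpin. These 2 crossings depend on the length used. By the longest transcript of each gene DDR1 stayed above EPHA2 with G7 (58.6 against 31.5 CPM per kb), and FGFR1 was above AXL with G1 (1.75 against 0.859) and with G7 (1.42 against 0.996). The control order was the same 10 places by either length, except that AXL and FGFR1 then overlapped. Summed over the 10 receptors the level was 582.7 ± 16.1 CPM in the control, 615.6 ± 6.24 CPM with G1 and 625 ± 16.3 CPM with G7. DDR1, MET and EPHA2 together made up 76.7%, 77.9% and 78.5% of those sums.

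**Figure D3:**
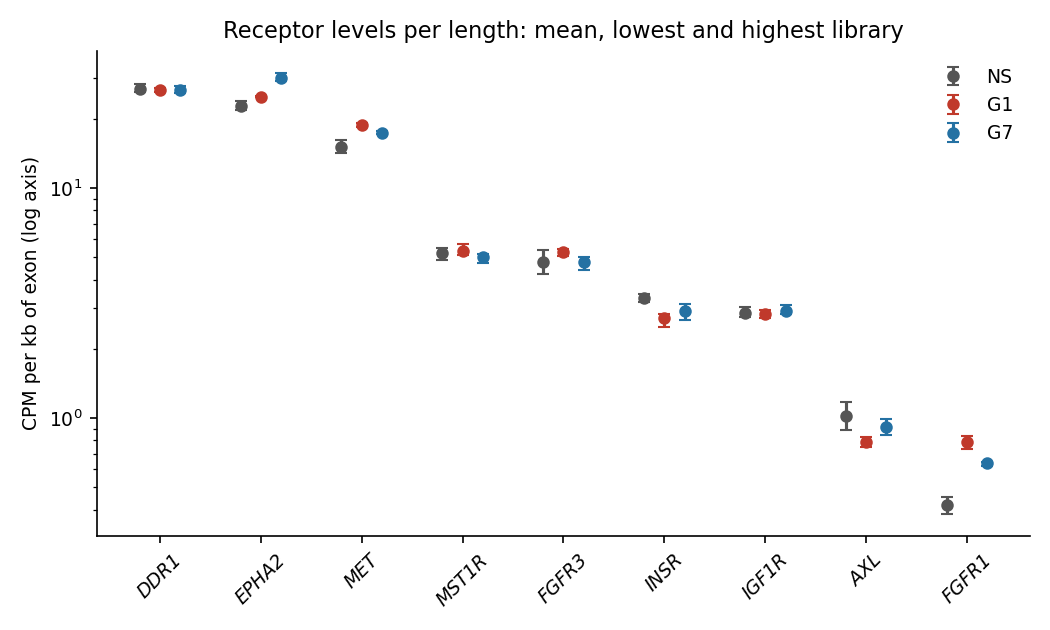
CPM per kb of merged exons (vertical log axis) of the 9 tested receptors in the order of the control, with the mean (point) and the lowest and highest library (bars) of NS, G1 and G7. DDR1, EPHA2 and MET lie above 15 CPM per kb in every group mean, and FGFR1 rises from 0.418 in the control to 0.787 with G1 and 0.636 with G7.

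The ligands of the 10 receptors were mostly low or listed at 0. Of 35 ligand genes 11 were tested and 10 were listed at 0 in every library, among them IGF1, INS and EFNA4, and HGF, the ligand of MET, had at most 1 read in any library. A listed 0 is not a measured absence, since counting rules can drop reads that fall on 2 genes. With G1 2 ligand genes rose and 4 fell (6 of 11, or 54.5%, against 59.1% of all genes tested), and with G7 3 rose and 1 fell (4 of 11, or 36.4%, against 22.7%, and 3 and 2 under upper-quartile scaling). FGF19, an endocrine FGF that binds FGFR4 with a klotho co-receptor and the other FGF receptors more weakly, had 11.9, 11.9 and 12.5 CPM in the control, 4.33, 4.95 and 5.07 CPM with G1, and 15.2, 17.3 and 17 CPM with G7. Its groups did not overlap and went opposite ways: it fell by 1.34 with G1 (SE 0.11, adjusted p = 4.56e-09) and rose by 0.44 ± 0.09 with G7 (adjusted p = 0.00113). MST1, which encodes the ligand of MST1R, fell from 2.62 ± 0.347 CPM to 0.684 ± 0.15 with G1 and 1.36 ± 0.333 with G7 (log2 fold change -1.92 and -0.91, adjusted p = 3.25e-06 and 0.00444). MST1 has near-identical copies in the genome, so its counts are uncertain.

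COL4A1 and COL4A2, the 2 chains of the DDR1 ligand collagen IV that were listed, both rose with G1. With G7 COL4A2 alone of the 2 was called. COL4A2 rose from 22.1 ± 0.701 CPM to 32.3 ± 2.98 with G1 and 27.0 ± 1.49 with G7 (log2 fold change 0.54 and 0.29, adjusted p = 5.71e-06 and 0.00914). COL4A1 rose by 0.82 with G1 (adjusted p = 7.1e-09), and its change with G7 was 0.20 (adjusted p = 0.0522, and 0.0229 without G7 replicate 3). COL1A1, a chain of collagen I and also a DDR1 ligand, was not called (0.04 and -0.10, adjusted p = 0.744 and 0.465). EFNA1, a main ligand of EPHA2, fell from 45.04 ± 2.23 to 37.0 ± 0.649 CPM with G1 (log2 fold change -0.29, adjusted p = 0.00058) and was 45.1 ± 2.84 CPM with G7. EFNA5, another EPHA2 ligand, fell with G1 (-0.22, adjusted p = 0.00105), and its change with G7 was -0.12 (adjusted p = 0.0753). The direct difference of EFNA5 between the hairpins was -0.09 (adjusted p = 0.137). Under upper-quartile scaling both of these were called (-0.15 each, adjusted p = 0.0296 and 0.0155). IGF2, a ligand of IGF1R and INSR, had 54.6, 55.5 and 80.4 CPM with G7 against 49.6 ± 1.67 CPM in the control, and the change of 0.36 (adjusted p = 0.0216) was 0.15 without G7 replicate 3, the highest library (adjusted p = 0.0813). It was also not called by DESeq2 (adjusted p = 0.122) or without control replicate 1 (0.0788) or 3 (0.067). On the same strand INS-IGF2 shares 20.9% of the exon length of IGF2. Another entry named IGF2, absent from the counted genes, shares 73.7%. The count of IGF2 over the shared bases is therefore uncertain. GAS6 and PROS1, the ligands of AXL, were under 2 CPM in every library and were not called.

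Proteins that activate, carry or sequester these ligands moved in both directions. Of 24 tested genes of 29 in that list, 11 rose and 9 fell with G1 (83.3% called, against 59.1% of all genes tested). With G7 8 rose and 2 fell (41.7%, against 22.7%). This list and the other pathway lists were chosen with earlier results of these data known. Their shares of called genes are therefore a description, not a test of the pathway. GPC1, a heparan sulfate proteoglycan that presents FGFs, rose from 81.9 ± 6.91 CPM to 172.7 ± 5.8 with G1 and 112 ± 6.72 with G7 (log2 fold change 1.07 and 0.45, adjusted p = 2.19e-11 and 2.49e-05). SDC1, another such proteoglycan, rose by 0.60 and 0.26 (adjusted p = 5.43e-09 and 0.00093). ST14, or matriptase, a protease that can activate HGF and macrophage-stimulating protein, rose by 0.60 and 0.24 (adjusted p = 4.91e-09 and 0.00177). The protease inhibitor gene SPINT1 fell with G1 (-0.36, adjusted p = 1.32e-05) and had a change of -0.04 with G7 (adjusted p = 0.669). SPINT2, another such gene, was not called (0.05 and -0.08, adjusted p = 0.522 and 0.431). IGFBP3, which binds IGFs, fell from 147.3 ± 4.98 CPM to 71.2 ± 2.48 with G1 and 91.0 ± 4.05 with G7 (-1.05 and -0.69, adjusted p = 2.24e-12 and 1.15e-08). IGFBP5 fell by 1.04 with G1 (adjusted p = 6.71e-08), and was 25.8 ± 2.65 CPM with G7 against 27.5 ± 2.01 in the control. Other IGF-binding proteins went the other way. IGFBP2 rose by 0.41 and 0.28 (adjusted p = 8.47e-06 and 0.00219), and IGFBP4 by 0.48 and 0.32 (adjusted p = 5.74e-07 and 0.000351). IGFBP6 had a change of 0.11 with G1 (adjusted p = 0.275) and rose by 0.25 with G7 (adjusted p = 0.0332), which DESeq2 did not call (0.0545). FGFBP1, a secreted carrier of FGFs, rose from 0.755 ± 0.202 to 3.12 ± 0.1 CPM with G1 (2.07, adjusted p = 2.01e-07) and was 0.982 ± 0.045 CPM with G7.

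Of 21 tested adaptors and first signalling enzymes, 8 rose and 6 fell with G1 (66.7% called, against 59.1% of all genes tested), or 6 and 8 under upper-quartile scaling. With G7 6 rose and 2 fell (38.1%, against 22.7%). PTPN11, the phosphatase SHP2 that links most of these receptors to RAS, rose from 313.3 ± 18.8 CPM to 421.8 ± 2.72 with G1 and 367.4 ± 8.89 with G7 (0.43 and 0.23, adjusted p = 1.72e-07 and 0.00114). PLCG1, the phospholipase recruited by FGFR1, rose by 0.51 and 0.33 (adjusted p = 6.18e-07 and 0.000496), and the adaptor CRKL by 0.37 and 0.18 (adjusted p = 1.04e-06 and 0.00804). SOS1, the RAS exchange factor carried by GRB2, fell by 0.48 with G1 and dropped by 0.23 with G7 (adjusted p = 6.45e-07 and 0.00476). IRS1, a substrate of INSR and IGF1R, rose more with G7 than with G1, by 0.32 and 0.17 (adjusted p = 3.61e-05 and 0.00269), and the direct difference was -0.15 (adjusted p = 0.00744), which was not called without G1 replicate 1 (adjusted p = 0.0617) or with low genes kept (0.0731). The G1 rise of IRS1 was not called under upper-quartile scaling (0.08, adjusted p = 0.109). IRS2, the other docking protein of these receptors, went the opposite way and fell by 0.33 and 0.17 (adjusted p = 4.25e-05 and 0.0282). The G7 fall of IRS2 was not called without control replicate 1 (adjusted p = 0.0704), control replicate 3 (0.105), G7 replicate 1 (0.0776) or G7 replicate 3 (0.0607).

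Of 14 tested ubiquitin ligases, phosphatases and other inhibitors of the receptors, 4 rose and 7 fell with G1 (78.6% called, against 59.1% of all genes tested), and 2 rose and 3 fell with G7 (35.7%, against 22.7%). GRB10, an adaptor that restrains INSR and IGF1R, fell from 33.0 ± 0.316 CPM to 15.8 ± 0.353 with G1 and 26.2 ± 2.93 with G7 (-1.06 and -0.34, adjusted p = 2.16e-09 and 0.00288). CBLB, a ubiquitin ligase of activated receptors, fell by 0.29 and 0.38 (adjusted p = 8.66e-05 and 3.75e-05), and its relative CBLC fell by 0.51 with G1 (adjusted p = 1.19e-05) and had a change of 0.05 with G7 (adjusted p = 0.699). PTPN1, the phosphatase PTP1B that acts on INSR, rose by 0.43 and 0.21 (adjusted p = 4.92e-08 and 0.00119), and ERRFI1, an inhibitor of EGFR, by 0.33 and 0.18 (adjusted p = 1.98e-06 and 0.00409). PTPRF, a receptor-type phosphatase, fell with G1 (-0.26, adjusted p = 4.77e-05) and had a change of -0.04 with G7 (adjusted p = 0.506).

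Of 48 other receptor tyrosine kinases 20 were tested. With G1 4 of these rose and 7 fell (55% called, against 59.1% of all genes tested), or 2 and 8 under upper-quartile scaling. With G7 1 rose and 3 fell (20%, against 22.7%), or 4 and 3 without G7 replicate 3. TYRO3, a paralog of AXL, rose by 0.53 with G1 (adjusted p = 5.15e-05) where AXL fell, and its change with G7 was 0.25 (adjusted p = 0.0541, and 0.00848 without G7 replicate 3). FGFR4, the other FGF receptor, was 3.45 ± 0.37 CPM in the control, 3.75 ± 0.377 CPM with G1 and 3.65 ± 0.497 CPM with G7, and was not called. ERBB2 and ERBB3, the relatives of EGFR, both fell with G1 (-0.39 and -0.37, adjusted p = 9.44e-07 and 1.17e-06), and with G7 ERBB3 fell (-0.20, adjusted p = 0.00302) while ERBB2 had a change of 0.005 (adjusted p = 0.96). EGFR itself was 1054 ± 32 CPM in the control, 969.5 ± 36.4 CPM with G1 and 1098 ± 39.4 CPM with G7. It was called lower with G1 than in the control (-0.12, adjusted p = 0.0311) and than with G7 (-0.18, adjusted p = 0.00366). The first of these was not called with low genes kept (adjusted p = 0.0932) or without control replicate 1 (0.0526), control replicate 2 (0.131), G1 replicate 1 (0.0531) or G1 replicate 2 (0.166). The ephrin receptor EPHB2 rose with G1 (0.32, adjusted p = 7.35e-05) and the pseudokinase PTK7 fell (-0.22, adjusted p = 0.0018), and neither was called with G7 (0.13 and 0.03, adjusted p = 0.0937 and 0.744). LMTK2 rose with both (0.17 and 0.16, adjusted p = 0.00202 and 0.0127), but with G1 not under upper-quartile scaling (0.09, adjusted p = 0.0877).

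The median log2 change of the bypass receptors and of each of the 5 lists lay between -0.09 and 0.15 with either hairpin, and that of all genes was -0.01 and 0.01. Directly between the hairpins 9 of 20 other receptor kinases, 6 of 11 ligands, 14 of 24 co-receptors and ligand-binding proteins, 13 of 21 adaptors and 9 of 14 ligases and phosphatases were called (45%, 54.5%, 58.3%, 61.9% and 64.3%), against 44.9% of all genes tested.

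**Figure D4:**
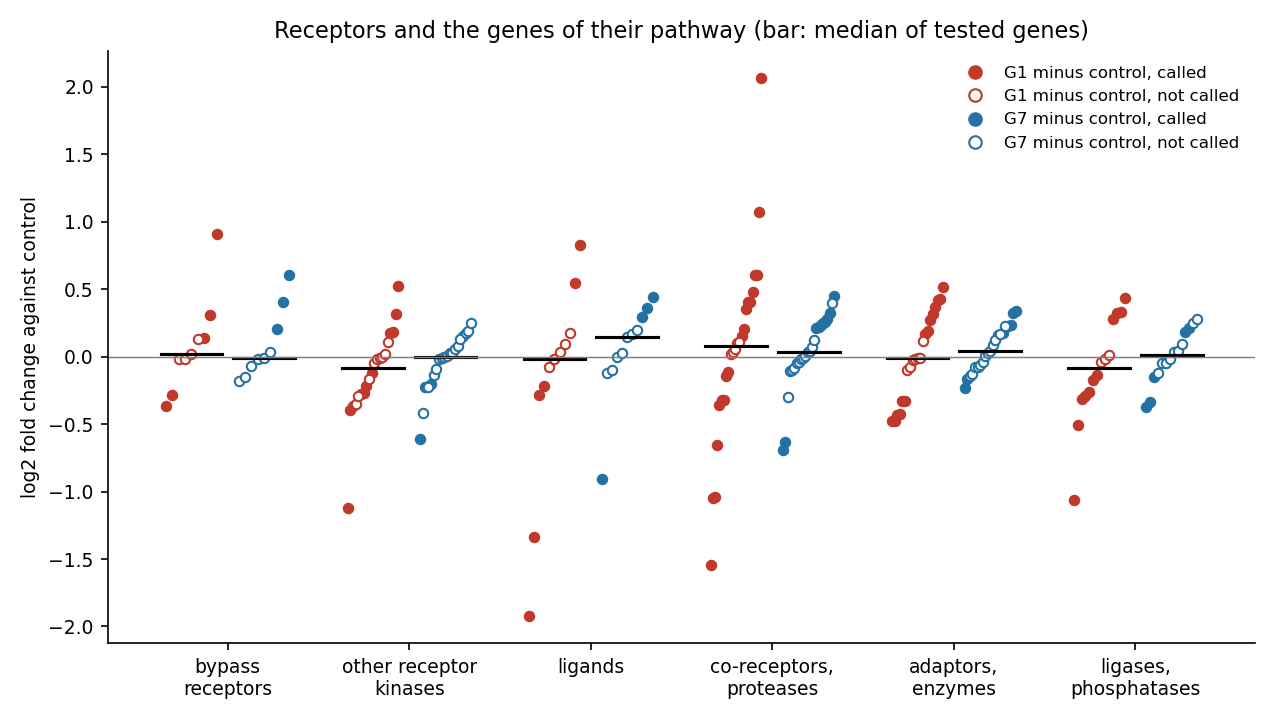
Log2 fold change against control (vertical axis) of every tested gene of the bypass receptors and of 5 pathway lists (horizontal axis) with G1 (red) and G7 (blue); filled points were called, open points were not, and black bars are list medians. Genes lie on both sides of 0 in every list, from FGFBP1 at 2.07 to MST1 at -1.92, both with G1.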

How the data were processed

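Poly-A RNA of HCC827 cells with hairpin NS, G1 or G7 (3 libraries each) was sequenced. The authors deposited one table of raw counts for Ensembl gene identifiers. The submitters' processing notes name the build hg38 (GRCh38), HTSeq 0.6.0 and TopHat2 2.1.0. Strand setting, annotation release and filters on reads: not given in the sources used here. Per the labels' protocols the libraries were strand-specific (dUTP). Counting that skips reads on overlapping genes or several places lowers the counts of such genes, and some listed zeros may come from it.

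Of 60675 genes, 57055 were matched to GENCODE 29 for symbols and coordinates. The other 3620 held 0.025% of counts. Counts were fitted with edgeR 4.0.16 in R 4.3.3: filterByExpr by group, TMM scaling, and a quasi-likelihood model with a mean per group over all 9 libraries (13264 genes, common dispersion 0.00217). Contrasts G1 minus NS, G7 minus NS and G1 minus G7 were tested with glmQLFTest, adjusted by Benjamini-Hochberg over all genes and called under 0.05. The SE is the log2 fold change over the root of F. The procedure was tested on simulated data. Depth limits the low genes, AXL, FGFR1 and FGFR2, most.

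The receptors and pathway lists were chosen with earlier results of these data known. Named genes were the 10 receptors, CBX5, nearest patterns, up to 6 called genes with the smallest p per list, cognate ligands or paralogs, and marker genes. Further genes of the same list were added beside IGFBP3, IRS1 and ST14. Alternatives were RLE and upper-quartile scaling, DESeq2 1.42.0, no filter, 2 groups only, a replicate block, no mitochondrial genes, a 1.5-fold null, another gene length and leaving out each library. Promoters come from RefSeq (GRCh38.p14).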

Additional observations from a re-analysis of the deposited data

Results flagged for a closer look

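These results differed between the hairpins by the direct test of G1 minus G7 in edgeR's quasi-likelihood fit. FGFR1 was higher with G1 by 0.305 on the log2 scale (adjusted p = 0.0125), on top of a rise with both. EPHA2 was lower with G1 by -0.264 (adjusted p = 0.000187), on top of a larger rise with G7. The FGF receptor ligand FGF19 was lower with G1 by -1.78 (adjusted p = 1.11e-10), and here every G1 library lay below the control and every G7 library above it. CBX5 was also lower with G1 than with G7, and its part in these differences was not tested.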

How the results depend on the processing

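Depth limits AXL (60 to 110 reads per library) and FGFR1 (77 to 193), and 3 libraries per group from 1 line limit all tests. The rises of MET and FGFR1 with both hairpins, of EPHA2 with G7 and the fall of INSR with G1 were called under every scaling, tool, filter, block and left-out library run, with MET between 0.23 and 0.36 with G1 and between 0.16 and 0.25 with G7, FGFR1 between 0.83 and 0.97 and between 0.54 and 0.67, EPHA2 with G7 between 0.36 and 0.45, and INSR with G1 between -0.37 and -0.23. They were not called against a 1.5-fold null (glmTreat of edgeR), except FGFR1 with G1. Against that null the counts of called receptors fell to 1, 0 and 0 for G1 minus NS, G7 minus NS and G1 minus G7 from 5, 3 and 2, with 1217, 10 and 316 genes called in all. In the same order this test called 0, 0 and 0 other receptor kinases, 3, 0 and 1 ligands, 5, 0 and 3 co-receptors and ligand-binding proteins, 0, 0 and 0 adaptors, and 1, 0 and 0 ligases and phosphatases, and CBX5 between the hairpins (-0.518) had an adjusted p of 1. Leaving out 1 library at a time, the called receptors ranged from 3 to 6 with G1 (3 without control replicate 1, control replicate 2 or G1 replicate 1), from 3 to 4 with G7, and from 1 to 3 between the hairpins (1 without G1 replicate 3). Other receptor kinases called with G7 ranged from 3 to 7 (7 without G7 replicate 3). The cause of these changes was not tested. DESeq2 called 6931, 2374 and 5009 genes where edgeR called 7837, 3014 and 5962. Under upper-quartile scaling the G1 median of all genes was -0.0981 against -0.011, and the calls between the hairpins were 2 higher and 8 lower among other receptor kinases (3 and 6 by TMM), 5 and 9 among co-receptors (7 and 7), 3 and 7 among adaptors (6 and 7), and 1 and 6 among ligases and phosphatases (4 and 5). Between the hairpins RLE scaling, or leaving out mitochondrial genes, called 2 higher and 1 lower of the receptors. Deviations of same-numbered replicates from their group means had correlations of -0.0763 to 0.199 across genes. The highest were between G1 and G7, 0.141 for replicate 2 and 0.199 for replicate 3. These values cannot decide whether same-numbered replicates shared a batch, which the labels do not state. The replicate block called 5, 3 and 2 receptors (7909, 3117 and 6069 genes). No call on a receptor changed direction.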
